A study of Homo sapiens with 12 samples.

Results

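The collagen, laminin and integrin genes were measured across 4 groups of 3 libraries of poly(A)-selected RNA from HEK293, a cell line derived from embryonic kidney. Members were chosen by symbol alone: COL, digits, A and digits; LAMA, LAMB or LAMC with a digit; and ITGA or ITGB with digits or with V, E, L, M, X or D. This rule used no measured value and took 81 of the 19836 genes of the deposited table, of which 44 were collagen, 12 laminin and 25 integrin genes. ITGA2B, whose symbol carries a further letter, fell outside it. The groups were A197-270 cells with interferon gamma (IFN-gamma), A197-270 cells without it, vector cells with IFN-gamma and vector cells without it. The labels number the libraries 10 to 12, 4 to 6, 7 to 9 and 1 to 3 in that order of groups. All samples were transduced on day 1, either with the A197-270 plasmid, described in the labels as a tandem plasmid, or with a Flag vector. IFN-gamma was given on day 2 to the 2 groups that had it, and all cells were harvested on day 4. What A197-270 encodes and the dose of IFN-gamma are not said in the labels, nor whether the 3 libraries of a group came from separate cultures, so a p-value here reflects the spread between libraries and may be technical.

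Laminins are trimers of an alpha, a beta and a gamma chain, and together with the network-forming collagen IV they build the basement membrane on which epithelial cells sit. Fibrillar collagens form the fibres of the interstitial matrix, and collagen VI and collagen XVIII link matrix layers. Integrins are heterodimers of an alpha and a beta chain that hold cells to these proteins and connect them to actin through talin, kindlins and the ILK-parvin complex. ITGB1 encodes the beta chain that pairs with the largest number of alpha chains.

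Levels are given in the authors' normalized counts, which are reads divided by 1 factor per library, and are compared between genes only per kilobase (kb) of exon. The member with the highest level was LAMC1, the gamma chain of most laminins, at a mean of 1965 normalized counts per kb over the 12 libraries. ITGB1 followed at 1253.6, COL6A1, a chain of collagen VI, at 725, the laminin beta chain LAMB1 at 644, COL6A2 at 563 and LAMB2 at 538 normalized counts per kb. The medians per kb were 71.7 over the 12 laminin genes, 35.5 over the 25 integrin genes and 23.7 over the 44 collagen genes. The chains of collagen I were unequal: COL1A1 had a mean of 1348 normalized counts over all libraries, while COL1A2 had 0 reads in each of the 12 libraries, which allows up to 3 of the 502078588 reads in all, a limit that covers counting error only. COL22A1 also had 0 reads in all libraries.

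**Figure D1:**
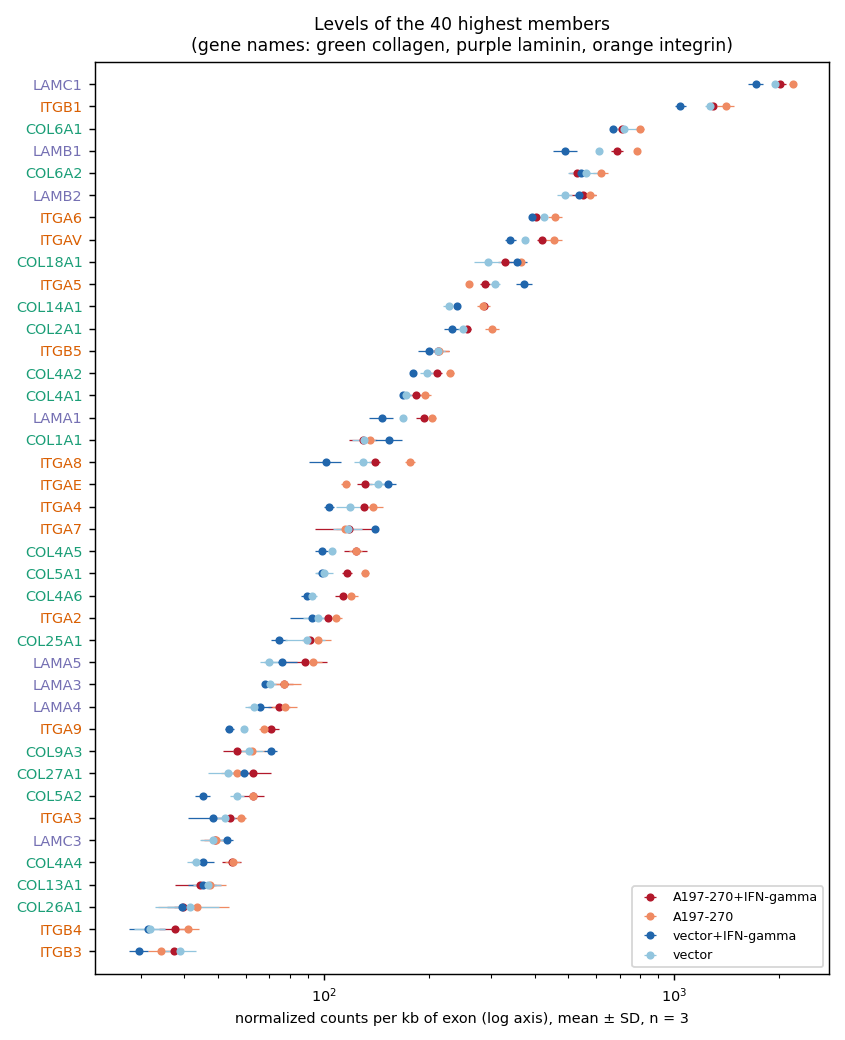
Levels of the 40 members with the highest mean, in normalized counts per kb of exon on a log axis; points are group means and bars are SD over 3 libraries. LAMC1 and ITGB1 stand at the top at 1965 and 1253.6 normalized counts per kb over all libraries, and the 4 groups of each gene lie close together on this scale.

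A member was tested when its mean over all libraries was at least 10 normalized counts, which 66 of the 81 passed: 34 collagen, 11 laminin and 21 integrin genes. The other 15 were COL1A2, COL5A3, COL8A2, COL9A1, COL10A1, COL11A1, COL17A1, COL20A1, COL22A1, COL28A1, LAMB4, ITGAM, ITGB2, ITGB6 and ITGB7. Among the leukocyte integrins ITGAM reached at most 13.4, ITGB2 at most 16.5 and ITGB7 at most 1.05 normalized counts in any library. Depth ran from 31417431 to 70746868 reads per library. IRF1, an IFN-gamma target, differed by 4.09 on the log2 scale between A197-270 cells with and without IFN-gamma and by 3.55 between vector cells with and without it. Without IFN-gamma IRF1 was lower in A197-270 than in vector cells, by -0.67 (limma, adjusted p = 2.39e-06). With it the difference was -0.13 (adjusted p = 0.12). GBP1, the other target checked, differed between A197-270 and vector cells by -2.87 without and -0.38 with IFN-gamma. Untreated groups thus started from unlike levels of these targets. HSPA6, an inducible HSP70, had 7364 to 8225 normalized counts in the 6 A197-270 libraries, against 18.1 to 27.6 in the 6 vector libraries. All 7 HEK293-like markers (PAX2, LHX1, VIM, KRT8, KRT18, NEFL and NEFM) had means above 10, and their summed level differed between the groups. It was 62870 to 65294 in A197-270 cells with IFN-gamma, 68834 to 70845 in A197-270 cells, 46983 to 50287 in vector cells with IFN-gamma and 56064 to 57961 in vector cells. Single markers went different ways: without IFN-gamma VIM, NEFM and NEFL were higher in A197-270 than in vector cells by 0.32, 0.25 and 0.55 on the log2 scale, PAX2 was lower by -0.42 (adjusted p = 0.0483), and KRT8, KRT18 and LHX1 differed by -0.01, 0.13 and -0.14 without passing the test. The part of these shifts in the member results was not tested, and in bulk RNA fewer cells of a type and less RNA per cell cannot be told apart. Of the 5 leukocyte markers 3 had means above 10; their summed level was 341 to 475 in A197-270 cells with IFN-gamma, 87.2 to 96.6 in A197-270 cells, 660 to 1063 in vector cells with IFN-gamma and 304 to 352 in vector cells. In A197-270 against vector cells without IFN-gamma, CD68 was lower by -2.65, and CD14 differed by 1.72 (adjusted p = 0.26). PTPRC and CD3E had reads in 1 library each. The 5 fibroblast markers summed to 214 to 264, the 3 endothelial markers to at most 20.6 and the 3 platelet markers to at most 13.98, with GP9 and PPBP at 0 reads.

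The first question was how the members differed between A197-270 and vector cells. Without IFN-gamma, 25 of the 66 tested members were higher and 3 lower in A197-270 cells at an adjusted p under 0.05 in limma, a linear model on log2(value + 1) with Benjamini-Hochberg adjustment over all 14049 genes tested. Over all those genes 12.5% were higher and 12.6% lower. Laminins had 8 higher and 0 lower of 11, collagens 11 and 1 of 34, and integrins 6 and 2 of 21. With IFN-gamma in both groups, 21 members were higher and 6 lower in A197-270 cells, beside 18.6% higher and 16.2% lower over all genes. There, laminins had 5 higher and 0 lower, collagens 11 and 4, and integrins 5 and 2. The median log2 fold change of the members was 0.15 in each of these comparisons, beside medians of all genes at -0.00078 without and -0.005 with IFN-gamma. Of the members called, 18 were higher in both comparisons, 2, ITGA5 and ITGAE, were lower in both, and 0 were called in opposite directions. The comparisons use different libraries, but limma took the spread of each gene from all 12 libraries, so their calls are not independent. Calls shared by both were not counted over all genes, so whether this agreement is particular to the members is not known. Most called changes were modest: 3 of the 28 members called without IFN-gamma and 4 of the 27 called with it reached 1.5-fold. The 3 A197-270 libraries all lay above the 3 vector libraries for 27 members and all below for 5 without IFN-gamma, beside 19.7% and 20.1% of all genes. With IFN-gamma these counts were 26 and 6, beside 23.5% and 22.9%. The counts over all genes depended on the scaling. Without IFN-gamma, scaling to equal totals gave 19 members higher and 3 lower, beside 1161 genes higher and 2741 lower, where the deposited scaling had 1756 and 1766. With IFN-gamma it gave 17 members higher and 8 lower, beside 1512 genes higher and 4170 lower, where the deposited scaling had 2616 and 2272. Without library 4 the count of higher members fell to 16 in the comparison without IFN-gamma, and that of all genes from 1756 to 1319. With IFN-gamma the count of lower members was 2 without library 8 or 10, and 3 without library 9, 11 or 12. Without 1 of these 5 libraries 1622 to 2011 of all genes were lower, where all 12 libraries gave 2272.

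**Figure D2:**
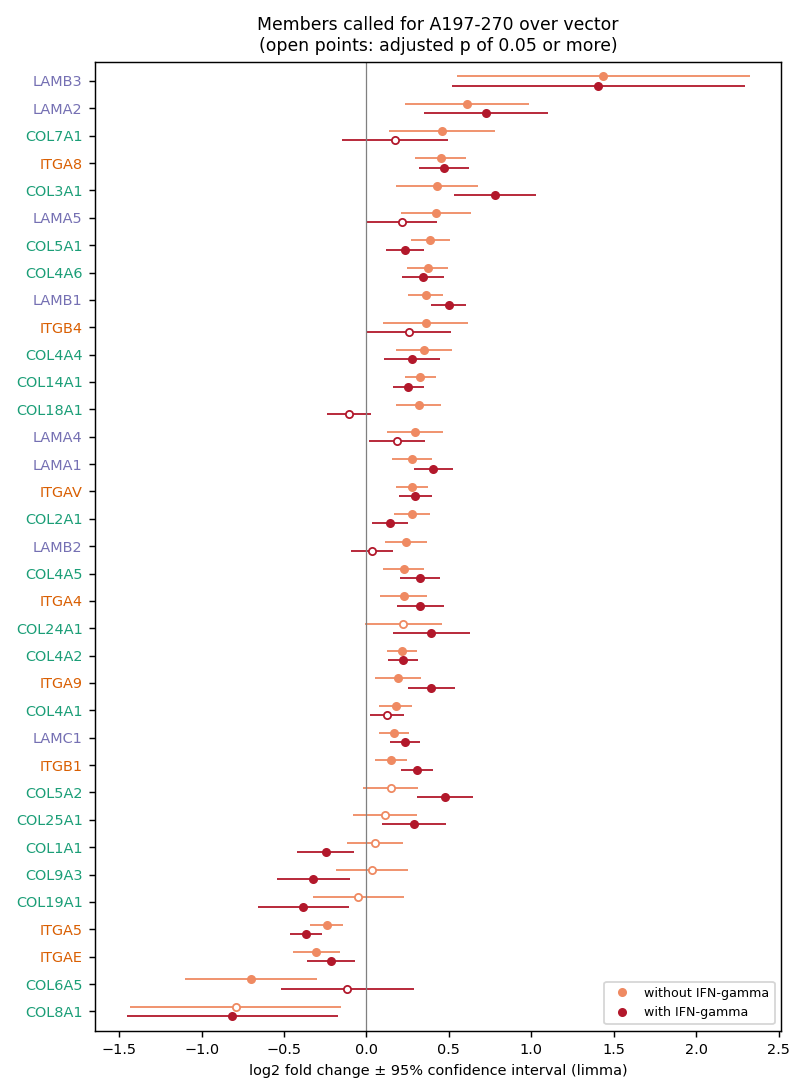
Log2 fold change of A197-270 over vector cells for every member called in at least 1 of the comparisons, without (light) and with (dark) IFN-gamma; bars are 95% confidence intervals from limma, and open points have an adjusted p of 0.05 or more. Most intervals lie right of 0, those of ITGA5 and ITGAE lie left of it in both comparisons, and the COL18A1 points lie on opposite sides.

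The laminin chains of the embryonic basement membrane, LAMA1, LAMB1 and LAMC1, were all higher in A197-270 cells. LAMC1 had 16198, 16990 and 17574 normalized counts in A197-270 cells with IFN-gamma and 17968, 18786 and 18340 in A197-270 cells, against 13599, 14997 and 14630 in vector cells with IFN-gamma and 16421, 16223 and 16487 in vector cells. All A197-270 libraries lay above the vector libraries of the same IFN-gamma state. The log2 fold change over vector was 0.17 ± 0.042 (SE) without IFN-gamma (adjusted p = 0.0111) and 0.23 ± 0.042 with it (adjusted p = 0.000865). Under quantile normalization the difference without IFN-gamma missed the threshold, at 0.099 on the log2 scale (adjusted p = 0.0744). LAMB1, the beta chain, had 5500, 5481 and 5864 in A197-270 cells with IFN-gamma and 6282, 6486 and 6390 in A197-270 cells, against 3690, 4316 and 3941 in vector cells with IFN-gamma and 4947, 5028 and 4945 in vector cells. Its groups did not overlap within an IFN-gamma state either, and it was higher by 0.36 ± 0.049 without IFN-gamma (adjusted p = 0.000132) and 0.50 ± 0.049 with it (adjusted p = 6.97e-06). LAMA1, the alpha chain, had 2935, 3038 and 3240 in A197-270 cells with IFN-gamma and 3274, 3300 and 3132 in A197-270 cells, against 2109, 2465 and 2393 in vector cells with IFN-gamma and 2680, 2643 and 2691 in vector cells. Its libraries did not overlap between A197-270 and vector cells in either state, and its differences were 0.28 ± 0.055 without (adjusted p = 0.00234) and 0.41 ± 0.055 with IFN-gamma (adjusted p = 9.83e-05). Within a library, LAMB1 per kb stood at 0.333 to 0.351 of LAMC1 in A197-270 cells with IFN-gamma and 0.357 to 0.361 in A197-270 cells, against 0.278 to 0.297 in vector cells with IFN-gamma and 0.310 to 0.320 in vector cells.

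Other laminin chains were called in fewer comparisons. LAMB2, the beta chain of adult basement membranes, had 4134, 3802 and 3943 normalized counts in A197-270 cells, against 3169, 3441 and 3454 in vector cells, and was higher by 0.24 ± 0.06 on the log2 scale (adjusted p = 0.00925). With IFN-gamma its difference was 0.03 with a 95% interval of -0.09 to 0.16 (adjusted p = 0.688). LAMA5, the alpha chain of most adult basement membranes, was higher by 0.42 ± 0.10 without IFN-gamma (adjusted p = 0.00659), at 1336 ± 77.4 in A197-270 cells and 996 ± 58.8 in vector cells (SD, n = 3 each); with IFN-gamma the difference was 0.21 (adjusted p = 0.113). LAMA2, the alpha chain of muscle laminin, was lower in level but further apart: 110, 121 and 128 in A197-270 cells with IFN-gamma and 151, 122 and 137 in A197-270 cells, against 66.9, 58.9 and 94.0 in vector cells with IFN-gamma and 95.1, 84.9 and 87.0 in vector cells. Its differences were 0.61 ± 0.18 without (adjusted p = 0.0203) and 0.73 ± 0.18 with IFN-gamma (adjusted p = 0.00562). LAMB3, a chain of the epidermal laminin, had the highest fold change of the family on few reads, with 13.2, 25.3 and 31.3 normalized counts in A197-270 cells with IFN-gamma and 32.8, 27.4 and 41.0 in A197-270 cells, against 5.14, 10.03 and 8.55 in vector cells with IFN-gamma and 13.2, 11.99 and 9.99 in vector cells. The groups did not overlap within an IFN-gamma state. Its differences were 1.44 ± 0.41 without (adjusted p = 0.0205) and 1.41 ± 0.41 with IFN-gamma (adjusted p = 0.0174). LAMA4 was higher without IFN-gamma by 0.30 ± 0.08 (adjusted p = 0.0138), and LAMA3 and LAMC3 were called in neither comparison. Without IFN-gamma the call was lost for LAMA2 without library 2, 3, 4 or 6 (adjusted p = 0.054 to 0.0844), for LAMB3 without library 3, 4 or 6 (0.0588 to 0.0802) and for LAMA4 without library 3 or 4 (0.052 to 0.0736). With IFN-gamma the LAMB3 call was lost without library 7, 11 or 12 (0.0594 to 0.0676).

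Of the 6 chains of collagen IV, 5 were higher in A197-270 cells without IFN-gamma and 4 with it. These genes lie in head-to-head pairs that start from a common promoter, so the stretch that both promoter windows of a pair share is shown for each. The windows are RefSeq's 250 bases before to 50 after each start (GRCh38.p14), and capitals mark CCAAT or GGGCGG (the GC box) on either strand. The first lies at chr13:110307108-110307333 with starts 127 bases apart, the second at chr2:227164374-227164455 with starts 419 bases apart and the third at chrX:108439588-108439708 with starts 380 bases apart, all on the plus strand.
COL4A1 and COL4A2: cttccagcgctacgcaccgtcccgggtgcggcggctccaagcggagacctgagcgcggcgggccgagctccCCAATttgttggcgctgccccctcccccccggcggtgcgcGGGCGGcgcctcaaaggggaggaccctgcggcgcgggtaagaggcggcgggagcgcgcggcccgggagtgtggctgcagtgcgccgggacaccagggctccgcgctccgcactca
COL4A4 and COL4A3: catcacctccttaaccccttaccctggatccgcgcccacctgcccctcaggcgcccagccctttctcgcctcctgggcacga
COL4A6 and COL4A5: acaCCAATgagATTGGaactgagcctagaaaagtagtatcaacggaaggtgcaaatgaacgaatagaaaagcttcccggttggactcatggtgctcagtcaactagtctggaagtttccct
CCAAT was found in 34.6% of all 35116 promoter windows and GGGCGG in 45%, and among the 76 windows of the 57 members in the RefSeq table the shares were 25% and 56.6%. A match in these letters is a description of the window only.

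COL4A1 and COL4A2 encode the chains found in nearly all basement membranes. COL4A2 had 3894, 4040 and 4218 normalized counts in A197-270 cells with IFN-gamma and 4424, 4329 and 4554 in A197-270 cells, against 3485, 3424 and 3493 in vector cells with IFN-gamma and 3717, 3708 and 4024 in vector cells. Its groups did not overlap within an IFN-gamma state, and it was higher in A197-270 cells by 0.22 ± 0.043 in both (adjusted p = 0.00201 without and 0.00118 with IFN-gamma). COL4A1 was higher by 0.18 ± 0.047 without IFN-gamma (adjusted p = 0.0128) and differed by 0.12 with it (adjusted p = 0.0522, or 0.0471 after quantile normalization). COL4A2 per kb stood at 1.05 to 1.27 of COL4A1 over the 12 libraries. COL4A5 and COL4A6, on the X chromosome, were both higher. COL4A6 had 999.6, 1061 and 1108 in A197-270 cells with IFN-gamma and 1067, 1163 and 1105 in A197-270 cells, against 823, 871 and 803 in vector cells with IFN-gamma and 827, 861 and 889 in vector cells. No library of the A197-270 groups fell into the vector range. COL4A6 was higher by 0.37 ± 0.059 without (adjusted p = 0.000423) and 0.34 ± 0.059 with IFN-gamma (adjusted p = 0.000565), and COL4A5 by 0.23 ± 0.058 (adjusted p = 0.0107) and 0.32 ± 0.058 (adjusted p = 0.000728). COL4A4 was higher by 0.35 ± 0.08 (adjusted p = 0.00562) and 0.27 ± 0.08 (adjusted p = 0.0163), while its neighbour COL4A3 differed by -0.08 (95% interval -0.44 to 0.28, adjusted p = 0.782) and -0.11 (-0.47 to 0.25, adjusted p = 0.635). The call of COL4A1 was lost without library 1 or 4 (adjusted p = 0.051 and 0.0584), and that of COL4A4 with IFN-gamma without library 8, 9 or 10 (0.0603 to 0.0698). Scaling to equal totals also lost the calls of COL4A1 without IFN-gamma (0.0609) and COL4A4 with it (0.0973).

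Among the fibrillar collagens, COL3A1, the chain of collagen III, was furthest apart. It had 199, 209.98 and 219 normalized counts in A197-270 cells with IFN-gamma and 234, 228 and 191 in A197-270 cells, against 120.3, 129 and 115 in vector cells with IFN-gamma and 166, 168 and 149 in vector cells. The A197-270 libraries were above the vector libraries in both states, by 0.78 ± 0.12 with IFN-gamma (adjusted p = 0.000183) and 0.43 ± 0.12 without it (adjusted p = 0.0143). COL5A2, which encodes a chain that sets fibril diameter, had 427, 480.3 and 497 in A197-270 cells with IFN-gamma against 318, 339.6 and 352 in vector cells with IFN-gamma, a difference of 0.47 ± 0.079 (adjusted p = 0.000432). Without IFN-gamma its difference was 0.15 (95% interval -0.02 to 0.32, adjusted p = 0.198). Its partner COL5A1 was higher in both states, by 0.39 ± 0.054 without IFN-gamma (adjusted p = 0.000157) and 0.23 ± 0.054 with it (adjusted p = 0.00465). COL2A1, the cartilage collagen, was higher by 0.27 ± 0.051 (adjusted p = 0.00139) and 0.14 ± 0.051 (adjusted p = 0.0452). COL1A1 went the other way with IFN-gamma: 1159, 1269.55 and 1385 in A197-270 cells against 1635, 1528 and 1365 in vector cells. The highest A197-270 library lay above the lowest vector library, and the difference was -0.25 ± 0.08 (adjusted p = 0.0268); its difference without IFN-gamma was 0.05 (adjusted p = 0.68). The call of COL3A1 without IFN-gamma was lost without library 3, 4 or 5 (adjusted p = 0.0529 to 0.0656), that of COL2A1 with IFN-gamma without library 7, 9, 11 or 12 (0.0669 to 0.18), and that of COL1A1 without library 7, 8, 10 or 11 (0.0623 to 0.115). With libraries scaled to equal totals the COL5A1 difference with IFN-gamma was 0.14 (adjusted p = 0.0535) and that of COL2A1 was 0.053 (adjusted p = 0.439). EdgeR and DESeq2 also lost the COL2A1 call with IFN-gamma (adjusted p = 0.0629 and 0.0579).

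The remaining collagens were mixed. COL14A1, a fibril-associated collagen, was higher by 0.33 ± 0.044 without (adjusted p = 0.000123) and 0.25 ± 0.044 with IFN-gamma (adjusted p = 0.000616), with no overlap between groups. COL24A1 and COL25A1, a fibrillar and a transmembrane collagen, were higher with IFN-gamma, by 0.39 ± 0.11 (adjusted p = 0.0124) and 0.29 ± 0.091 (adjusted p = 0.023). COL7A1, which forms the anchoring fibrils of skin, was higher without IFN-gamma by 0.46 ± 0.15 (adjusted p = 0.0376). Lower in A197-270 cells were COL6A5 without IFN-gamma, by -0.70 ± 0.19 (adjusted p = 0.0135), and COL8A1, COL9A3 and COL19A1 with it, by -0.81 ± 0.30 (adjusted p = 0.0485), -0.32 ± 0.10 (adjusted p = 0.0255) and -0.38 ± 0.13 (adjusted p = 0.033). The major chains of collagen VI were called by limma in neither comparison: COL6A1 differed by 0.15 (adjusted p = 0.056; 0.044 with DESeq2 and 0.0439 after quantile normalization) and 0.08 (adjusted p = 0.275), and COL6A2 by 0.15 (adjusted p = 0.158) and -0.04 (adjusted p = 0.717). Calls were lost for COL24A1 without library 12 (adjusted p = 0.0514), COL25A1 without library 9 or 11 (0.0863 to 0.087), COL7A1 without library 1, 2, 4 or 5 (0.102 to 0.116) and COL6A5 without library 1 or 6 (0.0604 to 0.0614). They were likewise lost for COL8A1 without library 7, 8, 10, 11 or 12 (0.0551 to 0.17), COL9A3 without library 9, 10 or 12 (0.0537 to 0.097) and COL19A1 without library 8, 9, 10, 11 or 12 (0.0533 to 0.107). Scaling to equal totals also lost the calls of COL7A1 without IFN-gamma (0.0548) and COL25A1 with it (0.103). With IFN-gamma DESeq2 lost the call of COL19A1 (0.0681), and quantile normalization that of COL8A1 (0.0619).

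Among the integrins, the alpha chains ITGA8 and ITGA5, which share RGD-containing ligands such as fibronectin and the partner chain ITGB1, moved in opposite directions. Their promoter windows are shown for that contrast, for ITGA8 at chr10:15719873-15720172 and for ITGA5 at chr12:54419217-54419516, both on the minus strand (RefSeq, GRCh38.p14), with the same motifs in capitals.
ITGA8: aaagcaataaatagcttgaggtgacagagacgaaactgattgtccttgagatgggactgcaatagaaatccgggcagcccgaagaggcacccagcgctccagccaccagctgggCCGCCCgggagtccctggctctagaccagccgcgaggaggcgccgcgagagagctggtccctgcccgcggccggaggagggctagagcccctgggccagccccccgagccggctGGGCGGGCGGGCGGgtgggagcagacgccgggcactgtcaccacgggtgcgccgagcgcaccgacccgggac
ITGA5: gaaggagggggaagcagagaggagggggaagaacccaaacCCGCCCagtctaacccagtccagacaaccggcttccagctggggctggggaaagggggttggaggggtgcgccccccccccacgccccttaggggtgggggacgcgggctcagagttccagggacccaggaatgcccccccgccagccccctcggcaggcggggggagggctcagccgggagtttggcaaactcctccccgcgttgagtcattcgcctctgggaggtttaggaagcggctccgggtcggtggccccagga
The ITGA8 window held 4 GC boxes, 3 of which overlap in GGGCGGGCGGGCGG, and the ITGA5 window held 1; neither held CCAAT. ITGA8 had 1009, 1067 and 1079.6 normalized counts in A197-270 cells with IFN-gamma and 1284, 1370.05 and 1338 in A197-270 cells, against 853, 723 and 709 in vector cells with IFN-gamma and 1039, 927 and 958 in vector cells. It was higher in A197-270 cells by 0.45 ± 0.071 without (adjusted p = 0.000412) and 0.47 ± 0.071 with IFN-gamma (adjusted p = 0.000223). ITGA5 had 2241, 2109 and 2219 in A197-270 cells with IFN-gamma and 1968, 1966 and 1988 in A197-270 cells, against 2724, 2765 and 2994 in vector cells with IFN-gamma and 2248, 2352 and 2404 in vector cells. All its A197-270 libraries lay below the vector libraries of the same state, by -0.24 ± 0.046 without (adjusted p = 0.00154) and -0.37 ± 0.046 with IFN-gamma (adjusted p = 4.41e-05). Per kb, ITGA5 stood at 1.96 to 2.21 times ITGA8 in A197-270 cells with IFN-gamma and 1.43 to 1.52 times in A197-270 cells, against 3.17 to 4.19 times in vector cells with IFN-gamma and 2.15 to 2.52 times in vector cells. The range of this ratio in A197-270 cells with IFN-gamma overlapped that in vector cells, while each A197-270 group lay below the vector group of the same IFN-gamma state.

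ITGB1, the common beta chain, had 7757, 7562 and 7945 normalized counts in A197-270 cells with IFN-gamma and 8193, 9013 and 8213 in A197-270 cells, against 6148, 6538 and 6135 in vector cells with IFN-gamma and 7487, 7483 and 7952 in vector cells. The groups did not overlap within an IFN-gamma state; the difference was 0.31 ± 0.045 with IFN-gamma (adjusted p = 0.000178) and 0.15 ± 0.045 without it (adjusted p = 0.0264). ITGAV, the alpha chain of vitronectin receptors, was higher by 0.28 ± 0.046 without (adjusted p = 0.000608) and 0.30 ± 0.046 with IFN-gamma (adjusted p = 0.000253). ITGA4 and ITGA9, related alpha chains, were higher with IFN-gamma by 0.33 ± 0.067 (adjusted p = 0.00191) and 0.39 ± 0.066 (adjusted p = 0.000449), and without it by 0.23 (adjusted p = 0.023) and 0.19 (adjusted p = 0.0457). ITGB4, the beta chain of hemidesmosomes, was higher without IFN-gamma by 0.36 ± 0.12 (adjusted p = 0.0416). ITGAE, known as CD103 on lymphocytes within epithelia, had 768, 749 and 793 in A197-270 cells against 902, 1038 and 921 in vector cells, and was lower by -0.30 ± 0.067 without (adjusted p = 0.00425) and -0.21 ± 0.067 with IFN-gamma (adjusted p = 0.0228). The exons of ITGAE overlap HASPIN on the opposite strand over 6.41% of their length, and HASPIN differed by -0.05 without and 0.20 with IFN-gamma (adjusted p = 0.719 and 0.0824). The alpha chains of the collagen and laminin receptors ITGA1, ITGA2, ITGA3 and ITGA6 differed by -0.04 to 0.18 over both comparisons, with adjusted p of 0.103 or more, and ITGB5 and ITGB8 were likewise not called. Without IFN-gamma the call was lost for ITGB1 without library 1, 2 or 5 (adjusted p = 0.077 to 0.112), ITGA4 without library 2, 3, 4 or 5 (0.0532 to 0.105), ITGA9 without any of libraries 1 to 6 (0.0617 to 0.121) and ITGB4 without library 1, 3, 4, 5 or 6 (0.0564 to 0.14). Scaling to equal totals also lost the calls of ITGB1 (0.0842), ITGA4 (0.0855), ITGA9 (0.122) and ITGB4 (0.0835) without IFN-gamma. DESeq2 lost the ITGA9 call in that comparison too (0.0733). With IFN-gamma the ITGAE call was lost without library 8, 9 or 12 (0.0566 to 0.0997).

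**Figure D3:**
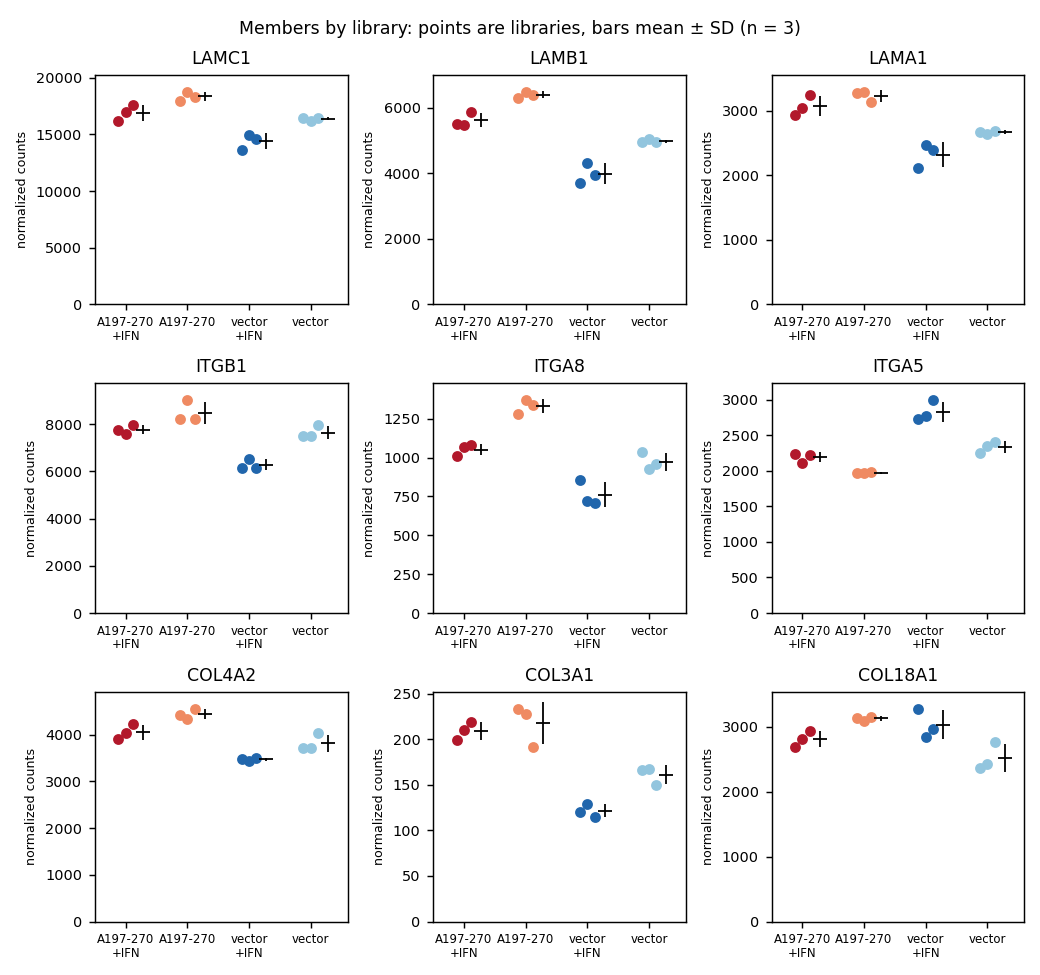
Normalized counts of 9 members in each library on axes that start at 0; points are libraries, and the cross beside each group gives mean ± SD (n = 3). LAMC1, LAMB1, LAMA1, ITGB1, ITGA8, COL4A2 and COL3A1 are lowest in vector cells with IFN-gamma, and ITGA5 is highest there, at 2724 to 2994.

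The response to IFN-gamma was compared within each plasmid. In vector cells 2 members were higher and 10 lower with IFN-gamma, beside 7.32% and 9.79% of all genes, and the median log2 fold change was -0.06 over the members and -0.0092 over all genes. Both scaling to equal totals and edgeR gave 4 members higher and 8 lower there. Over all genes equal totals gave 1526 higher and 830 lower, and edgeR 1094 and 1197. Limma on the deposited scaling had 1029 and 1376. In A197-270 cells 0 members were higher and 4 lower, beside 4.19% and 3% of all genes. DESeq2 and edgeR also called 0 members higher there, beside 706 and 571 of all genes. At an unadjusted p under 0.05, 14 of the 66 members differed there, beside 2941 of all 14049 genes. ITGA8 and LAMB1 were lower with IFN-gamma in both plasmid groups. Libraries did not overlap for 9 members above and 17 below in vector cells, beside 16.3% and 19.2% of all genes, and for 3 and 13 in A197-270 cells, beside 12.1% and 13%. In vector cells the count of lower members was 4 without library 1, 5 without library 2 and 6 without library 7 or 9. Over all genes the counts lower without library 1, 2, 7 or 9 were 855, 801, 1039 and 819, against 1376. In A197-270 cells the count of lower members was 2 without library 4, 5, 10 or 11. Over all genes the counts lower without these were 186, 353, 265 and 229, against 422.

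With the values of each library as given above, ITGA8 differed by -0.36 ± 0.071 between vector cells with and without IFN-gamma (adjusted p = 0.00385) and by -0.34 ± 0.071 between A197-270 cells with and without it (adjusted p = 0.00908). LAMB1 was lower by -0.32 ± 0.049 in vector cells (adjusted p = 0.000617) and -0.19 ± 0.049 in A197-270 cells (adjusted p = 0.0349). ITGB1 and LAMC1 fell in vector cells, by -0.28 ± 0.045 (adjusted p = 0.000795) and -0.19 ± 0.042 (adjusted p = 0.00872), and differed by -0.13 (adjusted p = 0.113) and -0.12 (adjusted p = 0.115) in A197-270 cells. LAMA1, COL3A1, COL4A2, COL5A2, COL12A1 and ITGB3 were also lower in vector cells, by -0.14 to -0.44. ITGA5 and COL18A1 were the members that limma called higher in vector cells with IFN-gamma, by 0.28 ± 0.046 (adjusted p = 0.0011) and 0.27 ± 0.062 (adjusted p = 0.00952). COL1A1 differed there by 0.23 in limma (adjusted p = 0.058). It was called higher by edgeR (0.04995), by DESeq2 (0.0279) and with equal totals (0.0342). In A197-270 cells ITGA5 differed by 0.15 (adjusted p = 0.0654). In A197-270 cells COL2A1, at 1651, 1729 and 1735 with IFN-gamma against 2065, 1909.8 and 2081 without it, was lower by -0.24 ± 0.051 (adjusted p = 0.00936), and ITGA6, the alpha chain of laminin receptors, by -0.18 ± 0.045 (adjusted p = 0.025). In vector cells the call was lost for LAMA1 without library 1, 2 or 7 (adjusted p = 0.0549 to 0.0819), COL3A1 without 1, 2, 7 or 9 (0.0628 to 0.0944), COL12A1 without 1, 2, 7 or 9 (0.0662 to 0.105), COL5A2 without 1 (0.0527), COL4A2 without any of its 6 libraries (0.0555 to 0.132) and ITGB3 without 1, 2, 7, 8 or 9 (0.0684 to 0.178). In A197-270 cells it was lost for LAMB1 without library 4, 5, 6, 10 or 11 (0.0774 to 0.12), ITGA6 without 5, 10 or 11 (0.0535 to 0.115) and COL2A1 without 4 (0.0502). Scaling to equal totals also lost the calls of COL4A2 (0.141) and ITGB3 (0.0788) in vector cells. There edgeR lost those of COL4A2 (0.0545) and ITGB3 (0.0629), and DESeq2 those of COL3A1 (0.0528) and ITGB3 (0.0795). The exons of ITGB3 overlap those of AC068234.1 on the same strand over 51.6% of their length, so how the reads of ITGB3 were assigned is uncertain.

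**Figure D4:**
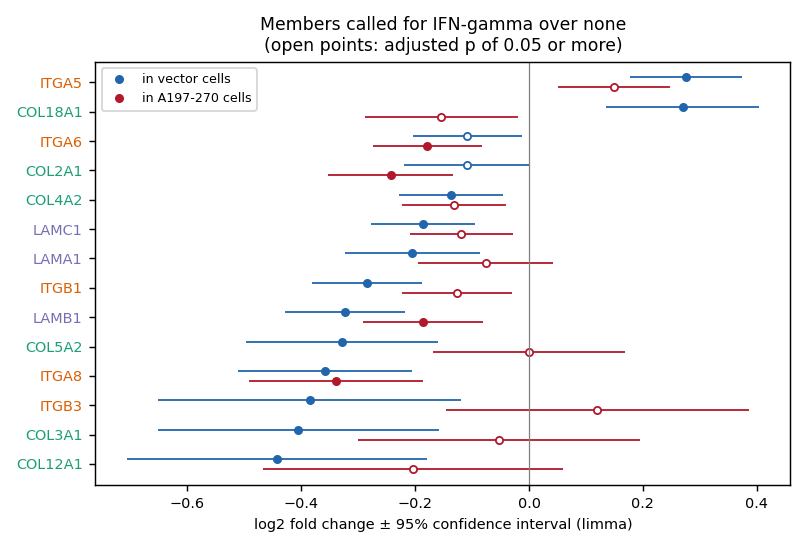
Log2 fold change with over without IFN-gamma in vector cells (blue) and A197-270 cells (red) for every member called in at least 1 of the comparisons; bars are 95% confidence intervals from limma, and open points have an adjusted p of 0.05 or more. ITGA8 and LAMB1 are filled and left of 0 in both, and the COL18A1 points lie on opposite sides of 0.

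Whether the IFN-gamma response depended on the plasmid was tested as the interaction, in which the log2 response of the vector libraries is subtracted from that of the A197-270 libraries. Of the 66 members, 0 were higher and 1 was lower, beside 0.819% and 0.0783% of all genes. At an unadjusted p under 0.05 there were 10 members, beside 1665 of all 14049 genes. EdgeR and DESeq2 also called 0 members higher and 1 lower. Over all genes edgeR called 115 higher and 10 lower, and DESeq2 221 and 62. The member called lower was COL18A1, the core of a basement membrane proteoglycan and the source of endostatin. It had 2689, 2812 and 2937 normalized counts in A197-270 cells with IFN-gamma and 3138, 3090.2 and 3154 in A197-270 cells, against 3279, 2849 and 2973 in vector cells with IFN-gamma and 2362, 2422 and 2769.9 in vector cells. IFN-gamma libraries lay below the others in A197-270 cells and above them in vector cells, and the interaction was -0.42 ± 0.088 (adjusted p = 0.0337). Without IFN-gamma COL18A1 was higher in A197-270 than in vector cells by 0.32 ± 0.062 (adjusted p = 0.00213), and with it the difference was -0.11 (adjusted p = 0.201), or -0.20 with equal totals (adjusted p = 0.0279). The interaction call was lost without any of libraries 1, 2, 4, 5, 6, 7, 9, 10 or 11 (adjusted p = 0.0589 to 0.121). The exons of COL18A1 overlap SLC19A1 on the opposite strand over 16.4% of their length, and the interaction of SLC19A1 was -0.22 (adjusted p = 0.517). For the members called in vector but not in A197-270 cells, such as ITGB1 and LAMC1, the interaction was 0.16 (adjusted p = 0.356) and 0.07 (adjusted p = 0.686), so their responses were not shown to differ.

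**Figure D5:**
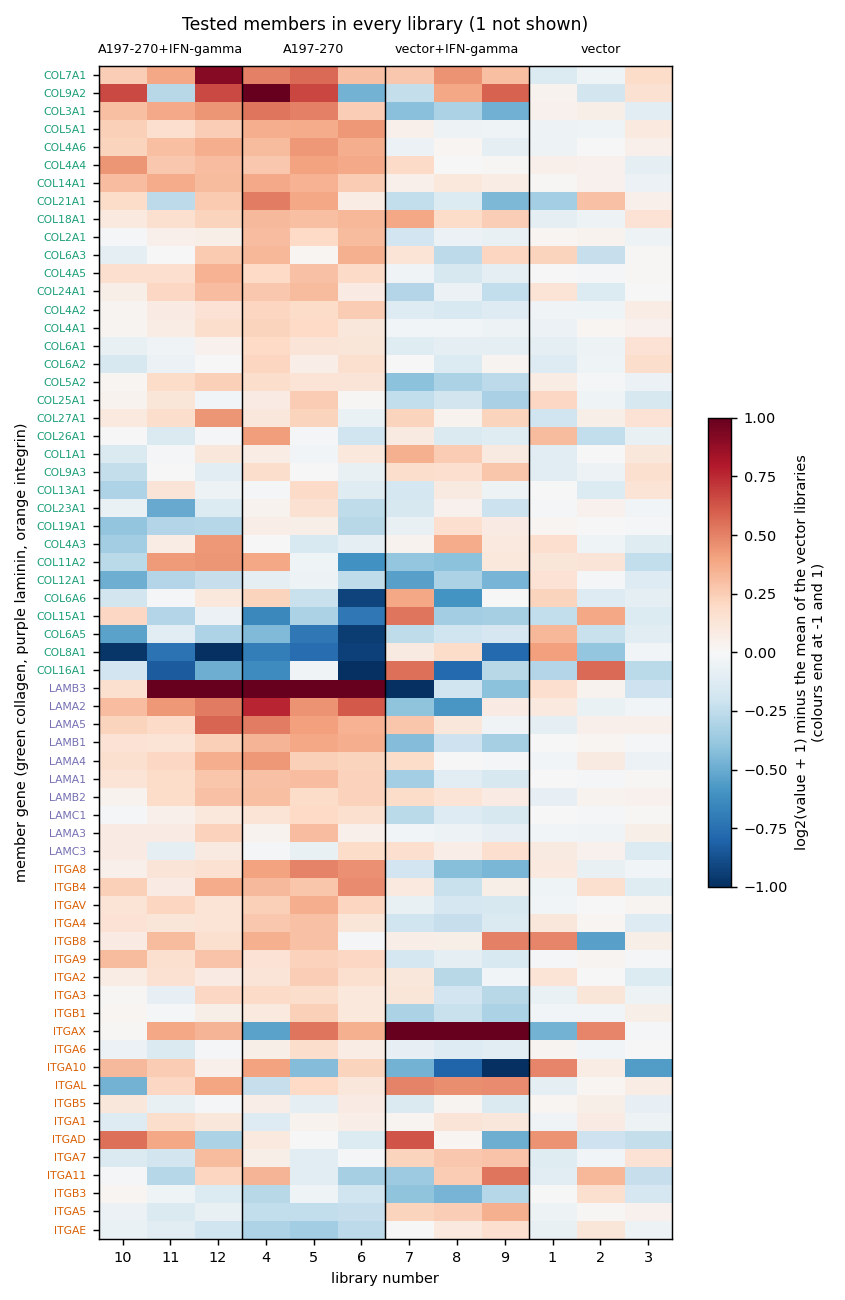
Log2(value + 1) of the tested members, 1 of the 66 left out, in each library minus the mean of the 3 vector libraries, with colours that end at -1 and 1; columns are libraries in their groups, and rows are grouped into collagens, laminins and integrins. Laminin rows are mostly red in A197-270 libraries, and rows of low level, such as COL16A1 and ITGA10, differ between libraries of a group by as much as between groups.

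Of the 66 tested members, 28 were called by limma in none of the 4 comparisons of 2 groups. How many of all genes were called in none was not counted, so this number has no background. The 28 members include COL6A1, COL6A2 and COL6A3, COL4A3, LAMA3 and LAMC3, and the integrin chains ITGA1, ITGA2, ITGA3, ITGA7, ITGAL, ITGAX, ITGB5 and ITGB8. Other tools and scalings called a few of these. DESeq2 called COL6A1 higher in A197-270 than in vector cells (adjusted p = 0.044), and called COL6A1 and COL6A2 lower with IFN-gamma in A197-270 cells (0.0345 and 0.0306). EdgeR called ITGAX higher with IFN-gamma in vector cells (0.0467), and with equal totals ITGAX (0.0494) was called there too. In A197-270 against vector cells with IFN-gamma, equal totals called ITGA7 (0.0205) and quantile normalization ITGA10 (0.043). ITGAL, the alpha chain of a leukocyte integrin, had at most 78.2 normalized counts in any library, and ITGAX, another, had 33.9, 36.3 and 33.0 in vector cells with IFN-gamma against 10.8, 22.0 and 15.3 in vector cells. That difference was 1.11 ± 0.37 in limma (adjusted p = 0.0571).

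Genes that act with these families were counted from lists by role. Over all genes, 12.5% were higher and 12.6% lower in A197-270 than in vector cells without IFN-gamma, and 18.6% and 16.2% with it. Between cells with and without IFN-gamma these shares were 7.32% and 9.79% in vector cells and 4.19% and 3% in A197-270 cells. Of 16 tested matrix partners, which bind laminin, collagen or integrins, 7 were higher and 2 lower in A197-270 than in vector cells without IFN-gamma, and 6 and 1 with it. LTBP1, which stores TGF-beta in the matrix, was higher by 0.33 (adjusted p = 0.000252) and 0.38 (adjusted p = 5.79e-05), and FREM2, a basement membrane linker, by 0.34 (adjusted p = 0.0149) and 0.45 (adjusted p = 0.00192). HSPG2, or perlecan, was higher by 0.40 without IFN-gamma (adjusted p = 0.007), while AGRN was lower by -0.34 (adjusted p = 0.0123). Between cells with and without IFN-gamma the list had 1 higher and 4 lower in vector cells and 2 and 2 in A197-270 cells, and FN1, fibronectin, was higher in both, by 0.16 (adjusted p = 0.0469) and 0.20 (adjusted p = 0.0304). Of 32 genes of collagen processing, 10 were higher and 1 lower in A197-270 cells without IFN-gamma and 10 and 2 with it; IFN-gamma gave 1 and 2 in vector cells and 0 and 0 in A197-270 cells. LOX, which cross-links collagen, had 2191, 2574 and 2096 normalized counts in A197-270 cells with IFN-gamma and 2139, 2123 and 2284 in A197-270 cells, against 1224, 1296 and 1269.8 in vector cells with IFN-gamma and 1132, 1277 and 1444 in vector cells. No A197-270 library overlapped a vector library, and LOX was higher by 0.77 ± 0.084 (adjusted p = 1.75e-05) and 0.85 ± 0.084 (adjusted p = 6.64e-06). CRTAP and PLOD2, which modify procollagen, were higher without IFN-gamma by 0.42 (adjusted p = 8.6e-06) and 0.43 (adjusted p = 0.000454), and MIA3, which loads procollagen into carriers, was lower by -0.18 (adjusted p = 0.0141).

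Of 29 tested genes of the adhesion machinery that acts inside the cell, 9 were higher and 2 lower in A197-270 cells without IFN-gamma and 12 and 3 with it. With IFN-gamma, 3 were higher and 8 lower in vector cells and 3 and 3 in A197-270 cells. PARVA, a parvin that joins ILK to actin, had 710, 641 and 716 normalized counts in A197-270 cells with IFN-gamma and 744, 742 and 801 in A197-270 cells, against 436, 429 and 444 in vector cells with IFN-gamma and 544, 557 and 529 in vector cells. Its groups did not overlap, and it was higher by 0.49 ± 0.065 without (adjusted p = 0.000106) and 0.66 ± 0.065 with IFN-gamma (adjusted p = 6.9e-06). PARVB was higher by 0.38 (adjusted p = 8.75e-05) and 0.48 (adjusted p = 9.19e-06), and TNS1, a tensin that binds integrin tails, was lower by -0.41 (adjusted p = 0.00728) and -0.45 (adjusted p = 0.00329). CD47, which binds integrins at the surface, was higher with IFN-gamma by 0.26 in vector cells (adjusted p = 0.000394) and 0.33 in A197-270 cells (adjusted p = 3.47e-05). Of 13 other matrix receptors, 4 were higher and 1 lower in A197-270 cells without IFN-gamma and 3 and 3 with it; IFN-gamma gave 4 and 2 in vector cells and 3 and 1 in A197-270 cells. The proteoglycan GPC6 was higher by 0.37 (adjusted p = 4.83e-05) and 0.43 (adjusted p = 1.23e-05), and the syndecan SDC4, a co-receptor for fibronectin, was lower by -0.32 (adjusted p = 0.000135) and -0.29 (adjusted p = 0.000198). CD44, the hyaluronan receptor, was near the test's lower limit, with 24.4, 22.8 and 24.2 in A197-270 cells against 8.43, 0 and 5.88 in vector cells (adjusted p = 0.0118). Of 18 tested matrix proteases and inhibitors, 2 were higher and 3 lower in A197-270 cells in either state; IFN-gamma gave 0 and 2 in vector cells and 0 and 3 in A197-270 cells. No gene of these lists was called in the interaction; the backgrounds are those given above for each comparison.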

How the data were processed

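Per the labels' protocols, total RNA was isolated with an RNeasy kit and libraries were made after poly(A) selection. The authors deposited 1 table of normalized values for 19836 genes, a signal in which the reads of a library are divided by a common factor. Per the submitters' processing notes the tools were HISAT2 2.1.0, StringTie 1.3.3b and DESeq2 1.22.1 with the build hg38; their roles are not stated, the sources used here do not name an annotation release or say whether counting used strand.

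Whole reads were recovered, since 100% of values lay within 0.001 of a read of a whole number. The test was limma (version 3.58.1, R version 4.3.3) with its trend option, fitted to log2(value + 1) of all 12 libraries with a mean for each of the 4 groups, for 14049 genes whose mean reached 10. The remaining rows held 0.0179% of the reads. P-values were two-sided, with Benjamini-Hochberg adjustment over the genes of a comparison and a threshold of 0.05. Fold changes of low genes on this scale differed from those of count models in either direction. Without IFN-gamma, A197-270 over vector was 1.44 in limma and 1.53 in edgeR for LAMB3. For COL16A1 it was -1.63 and -0.83. Errors beside them are SE and those beside means are SD. Comparisons that share a group, such as the comparisons with vector cells, share libraries.

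The values of 1 member and of 1 marker are not reported here, though counts and sums include them. Members, lists and the rule for named genes (a fixed set, the members called with up to 8 of the largest changes in each direction of a comparison, and up to 3 called genes per list, comparison and direction) were chosen with earlier results of these data known; genes named beyond it were chosen after their values were seen. Alternatives were edgeR 4.0.16 and DESeq2 1.42.0 on the recovered reads, pseudocounts of 0.5 and 5, no filter, a mean of at least 50, equal totals, quantile normalization, the 2 groups only, and leaving out each library. Every pair of replicates differed by more than counting noise (chi-square per degree of freedom 5.64 to 16.4). The script was tested on simulated counts with known changes. Gene positions and exon lengths are from GENCODE 29, and promoter sequences are from RefSeq (GRCh38.p14), which held windows for 57 of the 81 members. Strand of counting being unstated, overlapping genes such as COL18A1 and SLC19A1 cannot be told apart where their exons overlap, which is over 10% of the exon length for 3 members. Sequencing batches are not given in the labels, so no within-batch values could be made.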

Additional observations from a re-analysis of the deposited data

Results flagged for a closer look

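The response of COL18A1 to IFN-gamma differed between the plasmid groups by a test of that difference, and only the response of vector cells passed the threshold. It differed by -0.15 (adjusted p = 0.169) between A197-270 cells with and without IFN-gamma and by 0.27 (adjusted p = 0.00952) between vector cells with and without it, and the interaction was -0.42 on the log2 scale (limma, adjusted p = 0.0337). Under the settings other than leaving out a library the adjusted p ran from 0.000598 to 0.0495, and the call was lost without any of libraries 1, 2, 4, 5, 6, 7, 9, 10 or 11 (0.0589 to 0.121).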

How the results depend on the processing

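No paired analysis was possible because each library carries a number of its own from 1 to 12. Over 3110 fold changes of 39 named members under the alternatives, 2959 kept their side of the threshold, 128 lost the call and 23 gained it. The 2959 include fold changes called in neither, so they do not measure how well calls held. Only fold changes called in limma could lose a call, and their number is not given. Of the fold changes called in limma or under the alternative, 0 changed sign. Fold changes called in neither were not counted by sign. The count of members higher in vector cells with than without IFN-gamma was 4 with equal totals and 4 with edgeR, against 2. Over all genes these counts were 1526 and 1094, against 1029. Leaving out each library in turn, the counts of higher members ran from 16 to 21 (A197-270 over vector), 18 to 23 (the same with IFN-gamma), 2 to 3 (IFN-gamma in vector cells), 0 to 0 (IFN-gamma in A197-270 cells) and 0 to 0 (interaction). Counts of lower members ran from 2 to 3, 2 to 4, 4 to 11, 2 to 4 and 0 to 1 in the same order. Over all genes the higher counts ran from 1319 to 1640, 2073 to 2400, 592 to 1157, 389 to 534 and 96 to 151. The lower counts over all genes ran from 1268 to 1587, 1622 to 2011, 801 to 1388, 186 to 356 and 6 to 78. Of the calls higher in A197-270 cells, 15 of 25 without and 16 of 21 with IFN-gamma held without each library in turn. Of these, 14 and 15 also held under every other alternative except a mean of at least 50, which was left out of this count. Of the 10 members lower with IFN-gamma in vector cells, 4 held in both ways. How many calls over all genes held was not counted. With equal totals the median log2 fold change of all genes was -0.05 (A197-270 over vector), -0.093 (the same with IFN-gamma) and 0.031 (IFN-gamma in vector cells). The causes were not tested. Depth limits members of low level: LAMB3, COL8A1 and the 15 untested genes rest on few reads.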
